A study of Homo sapiens with 4 samples.

Results

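Ribosome biogenesis was followed through 30 genes, most of them for nucleolar proteins, factors of ribosomal RNA (rRNA) processing and assembly, and subunits of RNA polymerase I. Among the 30 are NDUFAF4 and TBRG4, whose proteins act in mitochondria. The 30 genes were chosen by name, with earlier results of these data known. All 30 were found by their Ensembl identifiers among the 60658 identifiers listed for each library. All 30 also passed the filter on low values, a mean of at least 1 FPKM (fragments per kilobase of gene, scaled to all fragments mapped in the library) over the 4 libraries, which left 14803 genes for comparison. The libraries came from HT29 and LIM1215, established human colorectal cancer cell lines. In each line, 1 library was made from cells given a negative control siRNA, a short RNA duplex without a stated gene target, and 1 from cells given an siRNA against TMEM161A, titled si2. No line or siRNA had a second library, so no value below has an error between cultures. Dose and time after siRNA were not given in the sources used here.

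Ribosomes are assembled in the nucleolus. RNA polymerase I transcribes a long precursor rRNA there, small nucleolar ribonucleoprotein particles (snoRNPs) modify it, and large sets of assembly factors cut and fold it into the small and large subunits. Growing cells, and many colorectal cancers, make ribosomes at a high rate. The transcription factor MYC, which pairs with MAX and binds the DNA sequence CACGTG (the E-box), is known to activate many genes of this pathway, and many of the 30 genes stand in common lists of MYC targets.

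Because MYC is part of the question, the promoters were inspected for the E-box. Windows of 250 bases before to 50 bases after an annotated start (RefSeq, GRCh38.p14) were found for 25 of the 30 genes. CACGTG, which reads the same on both strands, occurred in 10 of these 25 genes (40.0%), against 12.5% of the 10512 compared genes with an entry and 8.77% of all 27305 genes in the table. In all 10 it lay within 50 bases of the start, a position it had in 5.35% of the compared genes. The 10 genes were FBL, MYBBP1A, WDR43, NOP2, DDX21, GNL3, MRTO4, PES1, RRP9 and UTP20. These counts describe letters in a reference sequence and not binding.

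Shown are the 50 bases on either side of the start, 5′ to 3′, for 4 genes with the motif, 1 from each of 4 roles described below, and for GRWD1 and NOP16, which had no motif in their windows and were among the 5 highest members in each line. Capitals mark CACGTG.
FBL (chr19:39846330-39846429, minus strand): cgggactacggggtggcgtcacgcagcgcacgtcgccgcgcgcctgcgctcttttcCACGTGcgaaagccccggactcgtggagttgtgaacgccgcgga
MYBBP1A (chr17:4555335-4555434, minus strand): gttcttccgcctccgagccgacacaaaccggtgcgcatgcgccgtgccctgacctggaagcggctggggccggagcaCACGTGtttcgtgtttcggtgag
WDR43 (chr2:28894617-28894716, plus strand): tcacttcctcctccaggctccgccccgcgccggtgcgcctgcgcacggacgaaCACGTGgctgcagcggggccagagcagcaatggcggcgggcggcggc
NOP2 (chr12:6568242-6568341, minus strand): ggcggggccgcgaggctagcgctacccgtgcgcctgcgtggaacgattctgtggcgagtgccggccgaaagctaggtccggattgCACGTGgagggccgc
GRWD1 (chr19:48445933-48446032, plus strand): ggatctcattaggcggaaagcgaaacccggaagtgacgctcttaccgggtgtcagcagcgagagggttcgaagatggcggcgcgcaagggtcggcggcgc
NOP16 (chr5:176388549-176388648, minus strand): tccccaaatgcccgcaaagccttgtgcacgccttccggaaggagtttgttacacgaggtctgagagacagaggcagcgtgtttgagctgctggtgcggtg
Counting the first transcribed base as 1, the motif began at base 7 in FBL, 28 in MYBBP1A, 4 in WDR43 and 36 in NOP2. In GENCODE, NOP16 begins at base 176388927 of chromosome 5, upstream of the window used. Sequence around that start was thus not searched in full.

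Depth was estimated from the steps of low FPKM values. An FPKM of 1 stood for about 18.1 to 21.6 fragments per kilobase, which put an estimated 726.5 (RRS1) to 79413 (NPM1) fragments behind the members in the HT29 control library. Intervals below are 95% Clopper-Pearson intervals of the ratio of estimated fragments, and they cover counting error only. Changes are log2 ratios of FPKM + 1, TMEM161A siRNA over control siRNA. TMEM161A itself was at 10.9% of control in HT29 (FPKM 42.6 and 4.64) and at 19.45% in LIM1215 (39.1 and 7.61), which is the direction of the labels. Of 10 colon epithelial markers, all were at 1 FPKM or more in both LIM1215 libraries, but only 6 in the HT29 libraries, where CDX1 was listed at 0 and VIL1, KRT20 and LGALS4 were under 1 FPKM. Markers of the labelled tissue were thus partly missing from both HT29 libraries, the identity of the line was not tested, and every HT29 value below rests on its label. Of 12 markers of other cell types, 3 (CD68, COL1A1 and ACTA2) were at 1 FPKM or more in each library, and their list summed to 26.9 to 32.7 FPKM in HT29 and 67.5 to 87.8 in LIM1215.

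In HT29, the knockdown library had higher values of most of the 30 genes. Of these, 25 were higher and 5 lower than in the control library, against 53.9% of all compared genes that were higher, and the median log2 ratio was 0.22, against 0.04 for all genes. In LIM1215, 12 were higher and 18 lower, against 53.1% of all genes that were higher, and the median was −0.07, against 0.02. At least 1.5-fold higher in HT29 were GRWD1, RRP12, RRS1, PPAN and NOP16, 5 of 30 against a background of 7.87%, and POLR1B alone was at least 1.5-fold lower, against 6.91%. In LIM1215, GRWD1 alone was at least 1.5-fold higher, against 6.63%, and no member was 1.5-fold lower, against 6.18%. The LIM1215 shares were thus near or under the background. The members were chosen with earlier results of these data known, and the counts of either line were not tested against the background.

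The direction in HT29 depended in part on scaling, because the summed FPKM was larger in the knockdown (830981) than in the control library (785861). With FPKM rescaled to a common sum, 22 members were higher, beside 46.4% of all genes, and 3 of them at least 1.5-fold, beside 6.32%. With mitochondrial genes left out of that sum, 20 were higher, beside 43.6% of all genes, and 3 at least 1.5-fold, beside 5.74%. That setting moved the split of all genes past 1.5-fold in HT29 from 1165 higher and 1023 lower to 850 higher and 1428 lower. The common sum with mitochondrial genes gave 935 and 1317. The members' HT29 median stayed above 0 and the LIM1215 median below 0 under all scalings tried.

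**Figure D1:**
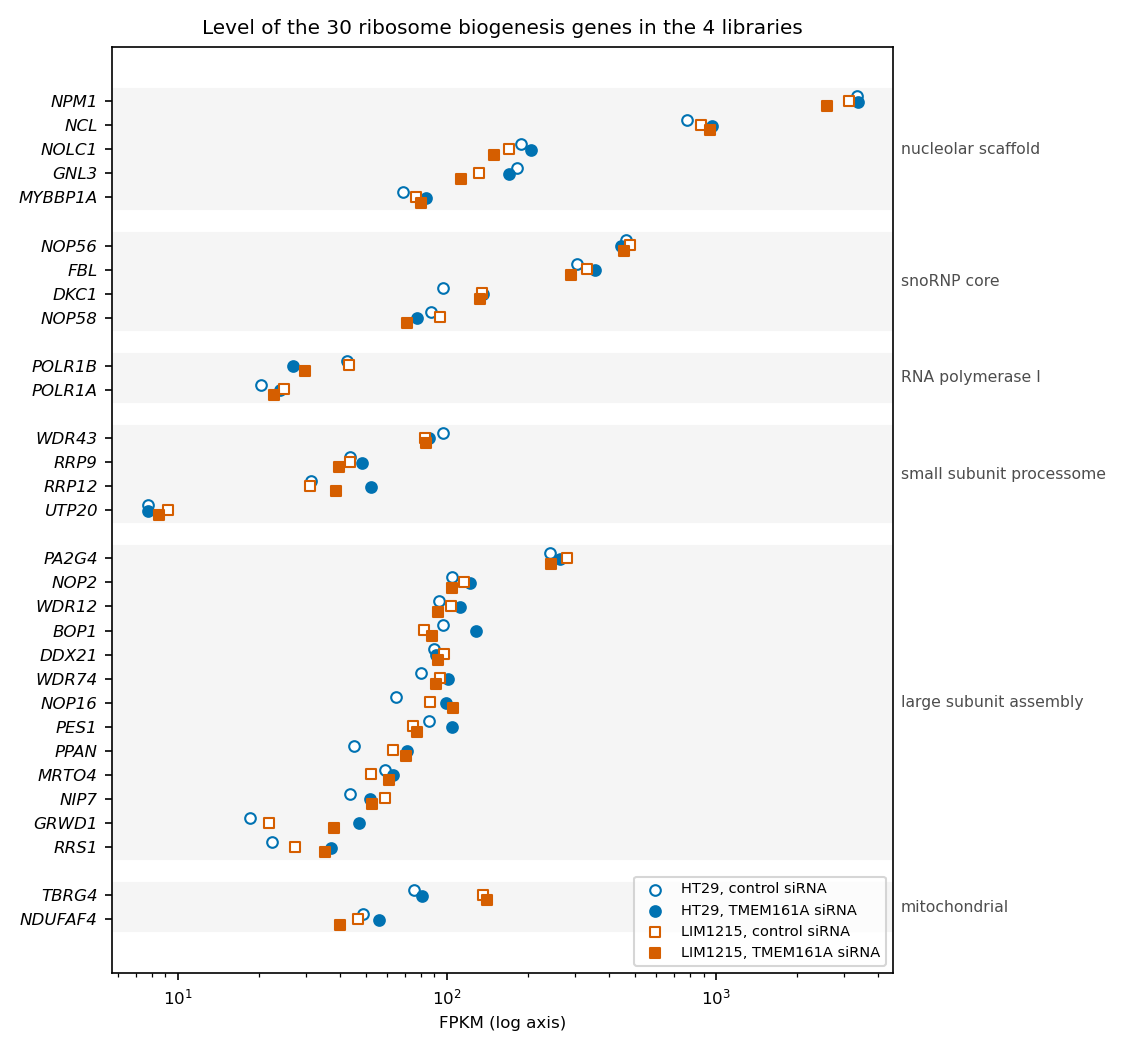
FPKM of each of the 30 genes (log axis) in the 4 libraries, grouped by role. Open symbols are control and filled symbols TMEM161A siRNA libraries, circles HT29 and squares LIM1215. Levels span from 7.74 FPKM (UTP20) to 3337 FPKM (NPM1) in the HT29 control, and the filled circle of GRWD1 lies farthest from its open circle.

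The nucleolar scaffold proteins came first. NPM1, the histone-binding chaperone that forms the granular outer part of the nucleolus, was the most abundant member, with 3337 and 3367 FPKM in HT29 and 3131 and 2586 in LIM1215, control before knockdown, as in all pairs below. It made up 48.2% of the members' summed FPKM in the control library of HT29 and 40.5% after knockdown in LIM1215. Its level was thus nearly equal in the HT29 libraries (log2 ratio 0.01, below 0 under the 4 other scalings) and lowest in LIM1215 after knockdown, at 82.6% of control (81.7% to 83.5%, −0.28). GENCODE lists 49 pseudogenes named after NPM1, 22 of them above 0 in some library, so its fragments may be divided among copies.

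NCL, nucleolin, which binds the precursor rRNA, had 783 and 971 FPKM in HT29 (log2 ratio 0.31) and 885 and 950.3 in LIM1215 (0.10). MYBBP1A, a nucleolar protein that binds MYB and restrains rRNA synthesis, had log2 ratios of 0.29 and 0.05. Both genes were higher in both lines, by more in HT29. NOLC1, a phosphoprotein that chaperones snoRNPs, had 0.13 in HT29 and −0.19 in LIM1215. GNL3, nucleostemin, a GTPase of stem and tumour cells, was lower in both (−0.10 and −0.22). The median of these 5 genes was 0.13 in HT29 and −0.19 in LIM1215.

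Of the snoRNP core, DKC1 differed most between the lines. DKC1, the pseudouridine synthase of H/ACA particles, had 97.03 and 136 FPKM in HT29, 140% of control (135% to 145%), but 135 and 133 in LIM1215. The HT29 control was thus the low library, and the other 3 lay together before rescaling. FBL, fibrillarin, the methyltransferase of C/D particles, had 305 and 356 FPKM in HT29 (log2 ratio 0.22) and 331 and 289 in LIM1215 (−0.20). NOP56 and NOP58, the paired scaffold proteins of C/D particles, were lower in both lines. NOP58 had 87.1 and 77.5 FPKM in HT29 (−0.17) and 94.6 and 71.2 in LIM1215 (−0.41), and NOP56 had log2 ratios of −0.06 and −0.08. The HT29 median of these 4 genes was 0.08 and the LIM1215 median −0.14. The HT29 median was below 0 under both common-sum scalings, and −0.03 with mitochondrial genes left out of the sum.

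The catalytic core of RNA polymerase I consists of a pair of large subunits, encoded by POLR1A and POLR1B. POLR1B (ENSG00000125630) had 42.7 FPKM in the HT29 control and 26.9 in the knockdown library, 62.9% of control (60.5% to 65.4%), and 43.2 and 29.7 in LIM1215, 68.9% of control (66.2% to 71.7%). Its control libraries were nearly equal before rescaling and both knockdown libraries were lower, the lowest log2 ratio of the 30 genes in each line (−0.65 and −0.52). POLR1A did not share this pattern, with 20.5 and 23.9 FPKM in HT29 (0.22) and 24.8 and 22.8 in LIM1215 (−0.12). Among 19 other subunits and factors of polymerase I, none was 1.5-fold higher or lower in either line. Of all compared genes, 7.87% were that much higher and 6.91% lower in HT29, and 6.63% and 6.18% in LIM1215. The medians of the 19 were 0.06 in HT29, below 0 under both common-sum scalings, and −0.03 in LIM1215. POLR1G, a subunit outside the catalytic core, was the highest in HT29 (28.8 and 43.01 FPKM, 0.56) with −0.08 in LIM1215, and TCOF1, the treacle protein of the polymerase's sites in the nucleolus, the lowest in LIM1215 (43.4 and 34.4 FPKM, −0.33) with 0.24 in HT29. POLR1C, a subunit shared with polymerase III, was the highest in LIM1215 (53.6 and 61.05 FPKM, 0.18) with 0.42 in HT29.

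RRP12 stood out among factors of the small subunit. RRP12, a HEAT-repeat protein needed for maturation and export of pre-ribosomes, had 31.4 and 52.1 FPKM in HT29, 166% of control (158% to 174%, log2 ratio 0.71), and 31.0 and 38.8 in LIM1215, 125.3% (119% to 132%, 0.32). The control libraries of the lines were thus alike before rescaling, and both knockdown libraries were higher. The other members of this group moved little. RRP9, a protein of the U3 snoRNP, had log2 ratios of 0.14 and −0.13, and WDR43, a scaffold that binds the precursor rRNA, had −0.18 and 0.01. UTP20, a large protein of the small subunit processome and the least abundant member (7.74, 7.75, 9.23 and 8.54 FPKM), had 0.003 and −0.10, and its HT29 interval of 93.2% to 108% included no change. Its HT29 value was below 0, and that of WDR43 in LIM1215 too, under other scalings.

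The largest group, 13 genes, holds assembly factors of the large subunit together with GRWD1, DDX21 and PA2G4. All 13 were higher in the HT29 knockdown library, with a median of 0.27, and 7 of them in LIM1215, with a median of 0.05. Of all compared genes, 53.9% were higher in HT29 and 53.1% in LIM1215. DDX21 in HT29 had only 0.02, an interval that included no change, and turned below 0 under the 4 other scalings. MRTO4 turned below 0 in HT29 with mitochondrial genes left out of the sum (−0.01).

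GRWD1 had the highest log2 ratio of the 30 genes in both lines. GRWD1 (ENSG00000105447), a WD-repeat protein that binds histones and pre-ribosomes, had 18.6 FPKM in the HT29 control and 47.3 in the knockdown library, 255% of control (242% to 268%), and 21.8 and 38.1 in LIM1215, 174% (165% to 184%). The log2 ratios were 1.30 and 0.77, at the 99.1st and 96.8th percentile of all compared genes. It was the only member past 2-fold, in HT29. In GENCODE release 44 on GRCh38 the gene spans bases 48445841 to 48457022 of chromosome 19, plus strand, and overlaps KCNJ14 on the same strand, which had 1.30 and 2.24 FPKM in HT29 and 0.873 and 1.05 in LIM1215.

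RRS1, PPAN and NOP16 followed. RRS1, which brings the 5S RNA particle into the large subunit, had 22.5 and 37.2 FPKM in HT29 (log2 ratio 0.70) and 27.3 and 35.3 in LIM1215 (0.36). NOP16 had 64.5 and 99.5 FPKM in HT29 (0.62) and 86.9 and 106 in LIM1215 (0.28). Both genes were higher in the knockdown library of each line, and NOP16 also differed between the controls. PPAN had 45.02 and 71.02 FPKM in HT29 (0.65) and 63.3 and 70.3 in LIM1215 (0.15). PPAN shares its locus with a readthrough gene and with P2RY11 on the same strand, and P2RY11 had 13.9 and 38.7 FPKM in HT29 and 15.8 and 27.4 in LIM1215. NOP16 overlaps HIGD2A on the opposite strand (99.4 and 122 FPKM in HT29, 165 and 188 in LIM1215).

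BOP1, PES1 and WDR12 form 1 complex that drives processing of the large subunit's rRNA. The log2 ratio of BOP1 was 0.40 in HT29 and 0.10 in LIM1215, that of PES1 0.27 and 0.05, and that of WDR12 0.26 and −0.16. All 3 genes of the complex were thus higher in HT29, and the LIM1215 interval of PES1, 98.2% to 109%, included no change. NOP2, an rRNA methyltransferase, NIP7, which acts in rRNA processing, and WDR74, which acts with a remodelling ATPase, went opposite ways in the lines, with 0.23, 0.24 and 0.33 in HT29 and −0.15, −0.16 and −0.05 in LIM1215. MRTO4, a nuclear relative of a ribosomal stalk protein, was the exception, higher by more in LIM1215 (52.2 and 61.2 FPKM, 0.23) than in HT29 (59.02 and 63.3, 0.10). DDX21, an RNA helicase of rRNA synthesis, had −0.07 in LIM1215. PA2G4, a growth-regulating protein that binds ribosomes, had 0.12 and −0.19.

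Of the 30 genes, 2 encode proteins that act in mitochondria. NDUFAF4, an assembly factor of respiratory complex I, had 0.20 in HT29 and −0.21 in LIM1215. TBRG4, which stabilises mitochondrial mRNAs, had 0.10 and 0.05, and its HT29 value turned to −0.01 with mitochondrial genes left out of the sum. TBRG4 was the only member at least 1.5-fold apart between the control libraries, with 75.5 FPKM in HT29 and 136 in LIM1215, against backgrounds of 21.8% of genes higher and 16.3% lower in LIM1215. The members' median difference between controls, 0.13 on the log2 scale, changed sign under 3 of the 4 other scalings, so the lines could not be ranked by their level of these genes.

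**Figure D2:**
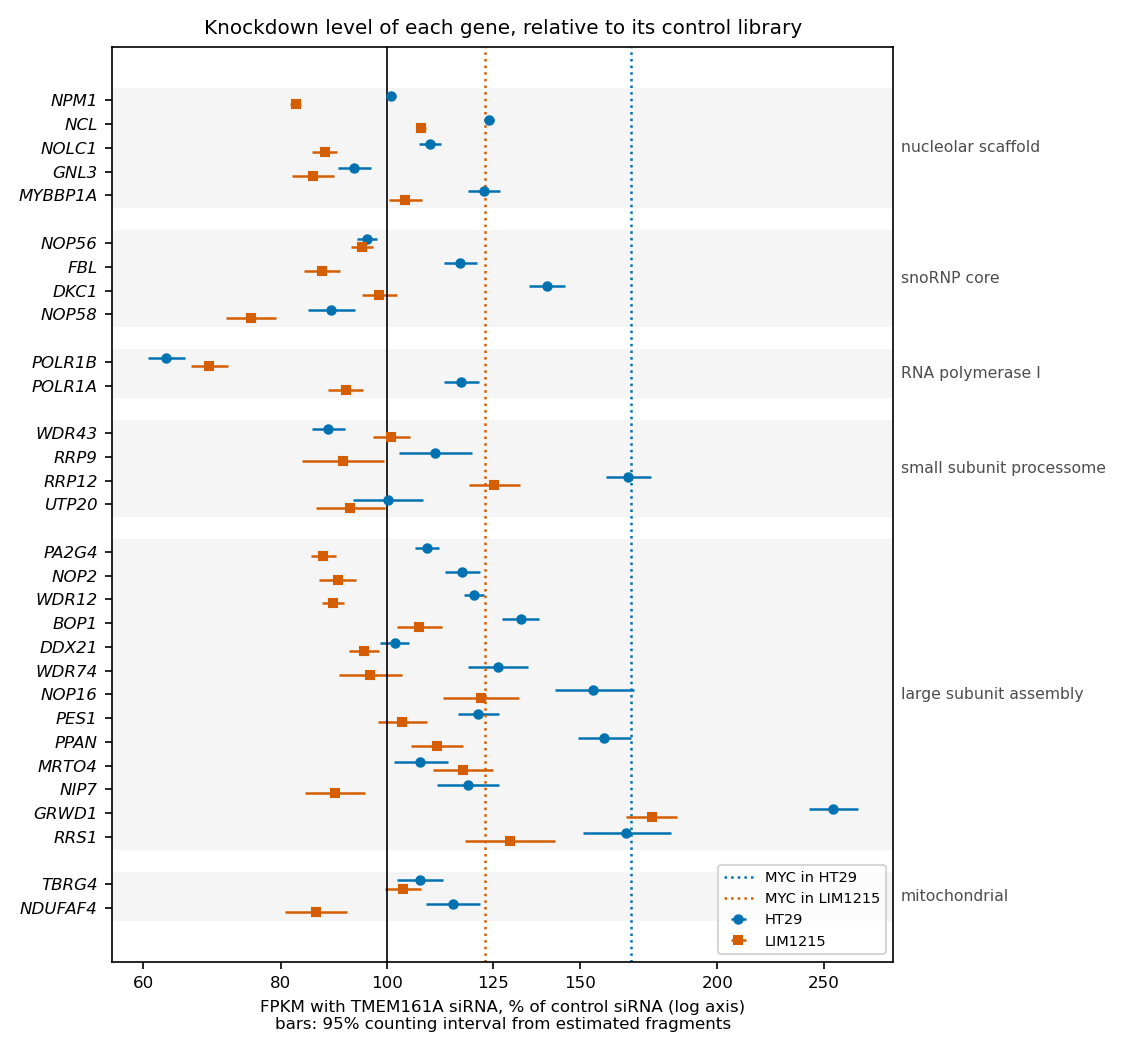
FPKM with TMEM161A siRNA as a percentage of the control library of the same line (log axis) for the 30 genes by role. Circles are HT29, squares LIM1215, bars 95% counting intervals, and dotted lines the value of MYC in each line (167% and 123%). GRWD1 lies at 255% and 174%, to the right of both MYC lines, and POLR1B at 62.9% and 68.9%.

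MYC was then set beside the members in each line. MYC (ENSG00000136997) had 215 FPKM in the HT29 control and 359 in the knockdown library, 167% of control (164% to 170%, log2 ratio 0.74), and 217 and 267 in LIM1215, 123% (120% to 126%, 0.30). The control levels were nearly equal, and both knockdown libraries were higher. In HT29, 29 of the 30 genes had a lower log2 ratio than MYC and only GRWD1 a higher one. In LIM1215, 27 were below MYC, and GRWD1, RRS1 and RRP12 above it. Of all compared genes, 95.4% had a lower log2 ratio than MYC in HT29 and 79.3% in LIM1215. The members' counts were not tested against these shares. The median of member minus MYC was −0.52 in HT29 and −0.37 in LIM1215. With 2 lines, a relation of MYC and the members across samples cannot be tested.

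MYC was higher in LIM1215, and 18 of the members were lower, beside 6870 of all 14803 compared genes. Among these 18, the counting intervals of DKC1 and WDR74 included no change. In that line the values ran from −0.52 (POLR1B) to 0.77 (GRWD1), on both sides of MYC. In HT29 they ran from −0.65 to 1.30. The 10 genes with a CACGTG near their start had medians of 0.12 in HT29 and −0.08 in LIM1215, and the 15 without it 0.24 and −0.08. Of the 5 genes past 1.5-fold higher in HT29, GRWD1, PPAN and NOP16 had a promoter window, and none of these windows held the motif. The NOP16 window did not reach the GENCODE start of that gene. The motif was absent for 15 of all 25 members with a window, and a difference was not tested. For RRP12 and RRS1 no promoter window was used.

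The partners and antagonists of MYC were read with it. MAX, the obligate partner, had 37.2 and 41.8 FPKM in HT29 (log2 ratio 0.16) and 71.4 and 46.3 in LIM1215, 64.8% of control (60.9% to 69.0%, −0.61). The LIM1215 control was the high library for MAX. MXD4, a repressor that competes for MAX, was higher in both knockdown libraries, with 9.49 and 17.5 FPKM in HT29 (184% of control) and 13.3 and 27.6 in LIM1215 (208%). The log2 ratios of MNT, another such repressor, were 0.52 and 0.39, and those of MGA 0.62 and 0.09. MXD1 had −0.09 and 0.33, MXD3 −0.04 and −0.43, and MXI1 0.0046 and −0.07. MYCL was low, at 3.03 to 4.07 FPKM, and MYCN was listed at 0 in both HT29 libraries and at 1.06 FPKM in the LIM1215 control. Of the related glucose-sensing factors, MLXIP had 0.49 and 0.48, MLX −0.06 and 0.16, and MLXIPL −0.05 and 0.24.

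The members that were high in HT29 tended to be high in LIM1215, at lower values. Between the 2 sets of 30 log2 ratios, Pearson's r was 0.852 and Spearman's rho 0.677, and without GRWD1 0.773 and 0.643. Over all 14803 genes r was 0.266 and rho 0.388. These include genes from a mean of 1 FPKM upward, while the least abundant member had a mean of 8.31. A set of genes matched to the members for level was not compared. Genes are not independent replicates, all points share the same 4 libraries, and no p is given. Of the 5 highest members in each line, 4 were shared. In both lines 11 members were higher, against 36.0% of all genes, and 4 (GNL3, NOP56, NOP58 and POLR1B) were lower, against 28.0%. Higher in HT29 and lower in LIM1215 were 14, against 17.7%.

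The log2 ratio was lower in LIM1215 than in HT29 for 27 of the 30 genes, against 52.3% of all compared genes. WDR43 (0.19), MRTO4 (0.13) and POLR1B (0.13) were the exceptions, and the most negative differences were those of GRWD1 (−0.53), DKC1 (−0.50) and PPAN (−0.50). The median difference was −0.31, against −0.02 for all genes and −0.44 for MYC. With 1 library per group this difference between the lines was not tested. Counting intervals of the change included 100% for UTP20 and DDX21 in HT29 and for DKC1, WDR43, PES1, WDR74 and TBRG4 in LIM1215.

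**Figure D3:**
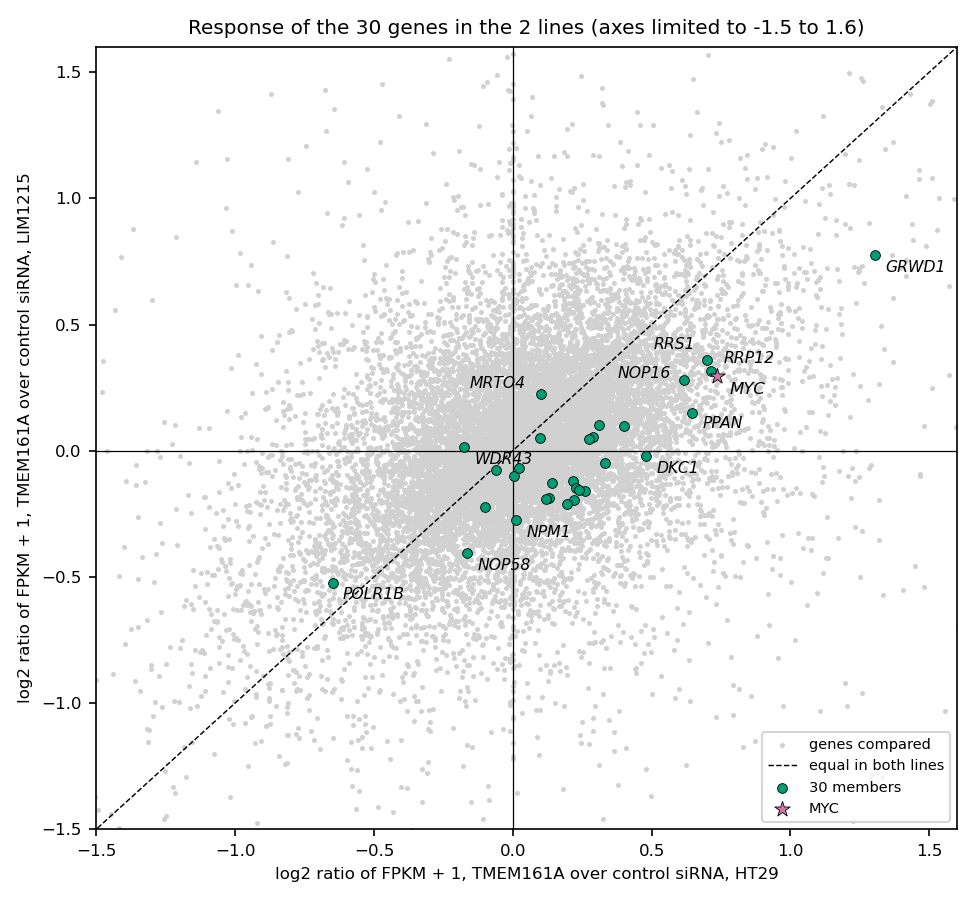
Log2 ratio of FPKM + 1, TMEM161A over control siRNA, in HT29 (x axis) and LIM1215 (y axis). Green points are the 30 genes, the star is MYC, grey points are the compared genes within the axes, and the dashed line marks equal values. Of the green points, 27 lie under the dashed line, and GRWD1 (1.30 and 0.77) and POLR1B (−0.65 and −0.52) are the ends of the row.

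Other genes of the pathway, from lists that held no member, had medians nearer 0. Of 155 such genes, 98 were higher in HT29 and 65 in LIM1215, with medians of 0.09 and −0.03. The background share of higher genes was 53.9% for HT29 and 53.1% for LIM1215. At least 1.5-fold higher in HT29 were 3 (background 7.87%), and 6 were that much lower (background 6.91%). For LIM1215 the counts were 1 higher (background 6.63%) and 3 lower (background 6.18%). These 1.5-fold shares of the 155 were thus under the background, which was not tested. The log2 ratio was lower in LIM1215 than in HT29 for 106 of the 155, beside 52.3% of all genes. The members had been chosen with earlier results of these data known, so their counts of 25 and 12 of 30 were not tested against those of the 155.

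By stage, the HT29 medians of the lists below were small and most of them, those of polymerase III and of the other snoRNP genes apart, were below 0 with mitochondrial genes left out of the common sum. The 46 other factors of the small subunit processome had medians of 0.05 in HT29 and −0.06 in LIM1215, and 2 were 1.5-fold lower in HT29 and 1 in LIM1215. RIOK2, a kinase of late small subunit maturation, was the lowest in HT29 (47.8 and 29.5 FPKM, −0.68), and UTP23 in LIM1215 (−0.63, with −0.66 in HT29). IMP4, a U3 snoRNP protein, was the highest in HT29 (0.55, with 0.18 in LIM1215), and WDR46 in LIM1215 (0.40, with 0.35 in HT29).

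The 43 other factors of the large subunit had medians of 0.09 and −0.02. DDX10, an RNA helicase, had 14.7 and 35.6 FPKM in HT29 (1.22) but −0.07 in LIM1215, and CEBPZ had 28.4 and 14.7 FPKM in HT29 (−0.90) but −0.01 in LIM1215. MAK16 was lower in both lines (−0.69 and −0.62), and MDN1, the giant ATPase of large subunit maturation, was the highest in LIM1215 (0.34, with −0.11 in HT29). Of 13 other snoRNP genes, 10 were higher in HT29 and 8 in LIM1215. ZNHIT6, a factor of C/D particle assembly, was the highest in both lines (0.44 and 0.54) and RPAP3, a chaperone adaptor, the lowest (−0.55 and −0.22).

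The 15 genes of the RNA exosome, which trims rRNA ends, had a median of 0.03 in HT29 and −0.0026 in LIM1215. DIS3, its main nuclease, was the lowest in HT29 (−0.61) with −0.38 in LIM1215, MPHOSPH6 the lowest in LIM1215 (−0.57) with 0.26 in HT29, EXOSC5 the highest in HT29 (0.42) and C1D in LIM1215 (0.18). RNA polymerase III makes the 5S rRNA. Of its 19 genes, POLR3D, a subunit, was the highest in both lines (16.6 and 26.7 FPKM in HT29, 21.7 and 34.3 in LIM1215, log2 ratios 0.65 and 0.63) and GTF3C3, a subunit of its factor TFIIIC, the lowest (−0.54 and −0.60). All 4 of these values of POLR3D and GTF3C3 thus kept their direction across the lines.

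The 30 genes often linked to MYC that act outside the nucleolus had medians of 0.06 in HT29 and −0.13 in LIM1215. Of these, 1 was at least 1.5-fold higher in each line, SLC19A1, the reduced folate carrier (14.3 and 28.7 FPKM in HT29, 0.96; 14.4 and 27.2 in LIM1215, 0.87). Lower by at least 1.5-fold were 4 in HT29 and 2 in LIM1215. Of all compared genes, 7.87% were that much higher and 6.91% lower in HT29, and 6.63% and 6.18% in LIM1215. MCM4, a subunit of the replicative helicase, was the lowest in HT29 (274 and 132 FPKM, −1.05), and ODC1, the first enzyme of polyamine synthesis, in LIM1215 (229.5 and 110.3 FPKM, −1.05).

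**Figure D4:**
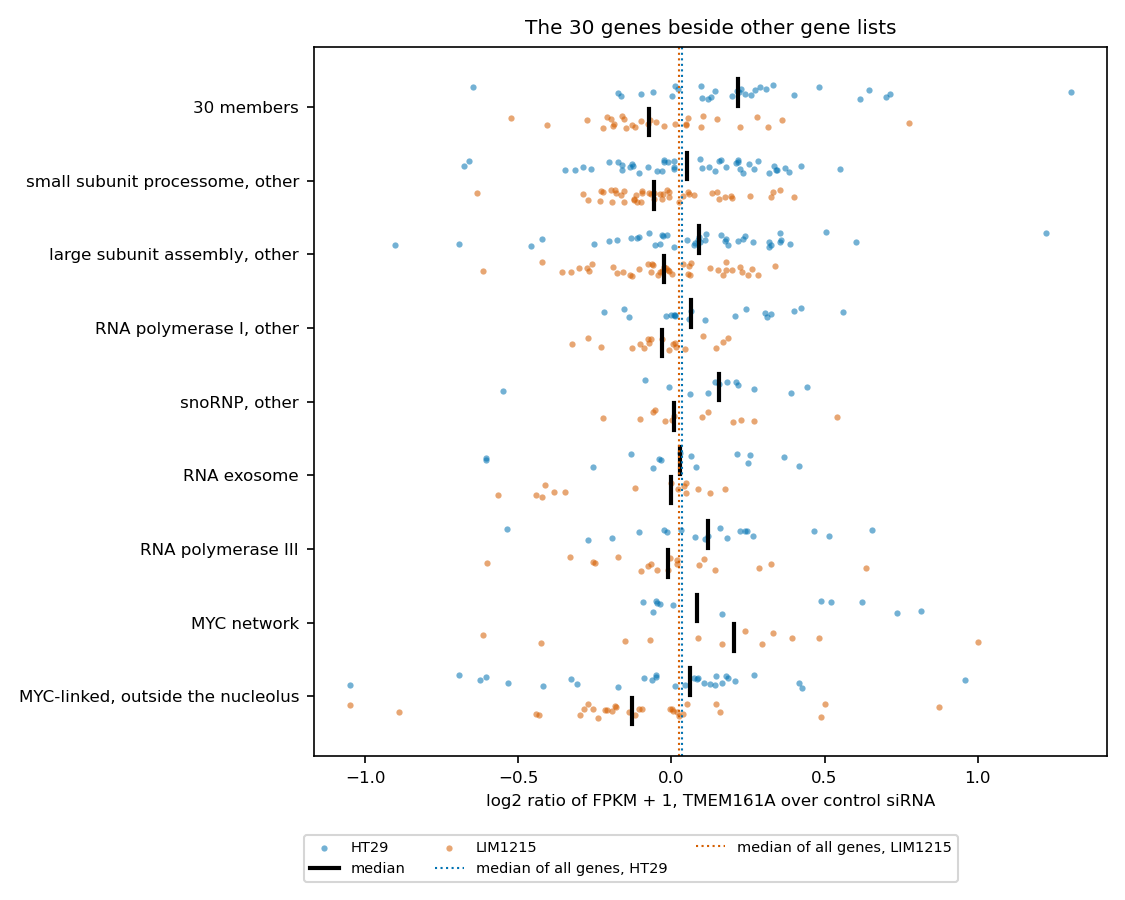
Log2 ratio of FPKM + 1, TMEM161A over control siRNA, for each compared gene of 9 lists (points, HT29 blue and LIM1215 orange), with list medians as black bars and the medians of all compared genes as dotted lines. The members' bars lie at 0.22 and −0.07, farther apart than those of the other lists shown.

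In bulk RNA, fewer cells that express a gene and less of its RNA per cell cannot be told apart. Counting in the members has further limits that the deposited values do not settle. Of the 30 genes, 21 overlap another annotated gene, 8 of them with 28 small nucleolar RNA genes inside, and the treatment of shared fragments is not given in the sources used here. The 5 genes at least 1.5-fold higher in HT29 are all among these 21. Of the 9 members without any overlap, 9 were higher in HT29 and 1 in LIM1215, with a HT29 median of 0.13. Among these 9, NPM1, UTP20 and DDX21 were below 0 in HT29 under the 4 other scalings. MRTO4 was below 0 there with mitochondrial genes left out of the common sum. Of all compared genes, 53.9% were higher in HT29 and 53.1% in LIM1215.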

How the data were processed

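Total RNA of HT29 and LIM1215 cells was sequenced from stranded mRNA libraries, per the labels' protocols. The authors deposited 1 FPKM value per gene and library. The submitters' processing notes name HISAT2 2.1.0, SAMtools 1.20, Cufflinks 2.2.1, Cuffdiff and GRCh38, without roles. The annotation, strand setting and filters are not given in the sources used here. Groups followed the sample titles, with 1 library in each of 4 groups, so no test was made.

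Symbols were matched by identifier, positions came from GENCODE release 44, and genes with a mean of at least 1 FPKM were compared as log2(FPKM + 1), a scale that understates changes of low genes. A 1.5-fold difference on this scale (log2 ratio of 0.585) was counted. FPKM is relative, so abundant genes shift all others. Fragments were estimated from genes with 1 transcript of at least 500 bases, by the depth and length offset that brought most low values within 0.03 of a whole number (73.4% to 74.7% of values). The fit was tested on simulated data of known depth. For genes with several transcripts the canonical length was used, which is approximate.

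All members and MYC were named, as were the genes of each other list with the highest and lowest log2 ratio per line at a mean of at least 5 FPKM, and all genes of the MYC network. KCNJ14, P2RY11 and HIGD2A, which overlap members, were named after their values were seen. The members and lists were chosen with earlier results of these data known. Alternatives were other pseudocounts, filters, scalings, thresholds and the mean in place of the median. Python 3.11.15, pandas 2.3.3 and scipy 1.17.1 were used.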

Additional observations from a re-analysis of the deposited data

Results flagged for a closer look

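The siRNA libraries of the lines went opposite ways for 38 of the values reported, counted by sign alone. With 1 library per group none of these differences was tested, and many lie near 0. Differences below are log2 ratios of LIM1215 minus HT29.

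Of the 30 members, 15 went opposite ways, and 14 of these were higher in HT29 and lower in LIM1215. Of all 14803 compared genes, 2622 (17.7%) were higher in HT29 and lower in LIM1215, and 2378 the reverse. The difference was −0.50 for DKC1, −0.42 for WDR12, −0.42 for FBL, −0.41 for NDUFAF4, −0.39 for NIP7, −0.38 for WDR74, −0.37 for NOP2, −0.34 for POLR1A, −0.32 for NOLC1, −0.31 for PA2G4, −0.29 for NPM1, −0.27 for RRP9, −0.10 for UTP20 and −0.092 for DDX21. WDR43 went the other way, with 0.19. The HT29 signs of NPM1, UTP20 and DDX21 and the LIM1215 sign of WDR43 changed with scaling.

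Among list medians, the difference was −0.29 for the 30 members, −0.32 for the nucleolar scaffold, −0.22 for the snoRNP core, −0.12 for the small subunit members and −0.23 for the mitochondrial pair. The HT29 medians of the snoRNP core and of the small subunit members were below 0 under both common-sum scalings. For genes that are no members it was −0.12 over all 155, −0.11 for the small subunit, −0.11 for the large subunit, −0.10 for polymerase I, −0.031 for the exosome, −0.13 for polymerase III and −0.19 for the MYC-linked genes.

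Among other named genes, the difference was −1.29 for DDX10, −0.82 for MPHOSPH6, −0.78 for MAX, −0.64 for POLR1G, −0.57 for TCOF1 and −0.075 for MXI1. It was above 0 for MDN1 (0.44), MXD1 (0.43), MLXIPL (0.29), TAF1D (0.23) and MLX (0.23). TAF1D, a factor that starts polymerase I transcription, had the lowest HT29 value of its list, −0.22, with 0.01 in LIM1215.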

How the results depend on the processing

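No paired analysis was possible because each group had 1 library. Among the members, MYC and the list medians, no value past 1.5-fold changed sign under the alternatives run for it, of 14 in all, and of 60 member values 6 changed sign, 5 in HT29 and 1 in LIM1215, all by scaling. The members' median ranged between 0.11 and 0.23 for HT29 and between −0.13 and −0.03 for LIM1215, and the difference of medians from −0.30 to −0.21. With a common sum, the HT29 median was 0.14, 3 members were 1.5-fold higher in HT29, MYC had 0.66 in HT29 and the median log2 ratio of the members, LIM1215 control over HT29 control, here called the control difference, was −0.046. With mitochondrial genes also left out these were 0.11, 3, 0.625 and −0.035, with MYC at 0.26 in LIM1215. With upper quartile scaling MYC had 0.70 in HT29 and the control difference was −0.0029, and with centring MYC had 0.70 in HT29. With a pseudocount of 5, 0 members were 1.5-fold lower in HT29. At 2-fold, HT29 had 1 member higher and 0 lower, beside 1.85% and 1.95% of all genes, and LIM1215 had 0 higher, beside 1.68%. At the smaller fold tried, HT29 had 8 higher, beside 20.9%, and LIM1215 had 2 higher and 2 lower, beside 18.6% and 15.7%. The alternatives that left out the mitochondrial pair or the members overlapping another gene were chosen after seeing the data. Leaving out the mitochondrial pair moved no main value beyond its counting error or 1.5-fold. Over the 9 members without an overlapping gene, the HT29 median was 0.13, the control difference was 0.0003, and 9 were higher in HT29 and 1 in LIM1215. Of these 9, NPM1, UTP20, DDX21 and MRTO4 changed sign in HT29 under other scalings. In this set, 0 were 1.5-fold higher or lower in HT29, and 0 were 1.5-fold higher in LIM1215. Fewer members bound these counts. The members' counting intervals had a median half-width of 0.06 on the log2 scale in either line, about the size of several of these shifts.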

Other observations

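P2RY11, a purinergic receptor gene just downstream of PPAN and joined to it by a readthrough transcript, had a log2 ratio of 1.42 in HT29, where PPAN had 0.65, and of 0.75 in LIM1215, where PPAN had 0.15. The readthrough gene PPAN-P2RY11 was listed at 0 in both control libraries and after knockdown at 1.61 FPKM in HT29 and 0.754 in LIM1215. How fragments were divided among these overlapping genes was not tested. P2RY11 was chosen after its values were seen.

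The members' share of all FPKM was 0.881% in the HT29 control and 0.901% in the knockdown library, and 0.787% and 0.714% in LIM1215. Without NPM1, the members summed to 3590 FPKM in the HT29 control and 4119 in the knockdown library, and to 3882 and 3801 in LIM1215.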
